A study of Mus musculus with 28 samples.

Results

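Short stretches of chromatin that carried the histone variant H3.3 at the ends of genes, and that shared no base with chromatin acetylated at lysine 27 of histone H3 (H3K27ac), are described here in mouse embryonic stem cells. They were chosen by their width, position and contact with H3K27ac in the deposited lists of consensus regions, which give places in the genome that the authors kept for each target. An H3.3 region was taken if it lay on chromosomes 1 to 19, was under 1500 bp wide, reached to within 1 kb of an annotated gene end, start or finish, of any biotype, and touched no H3K27ac region. Of 5446 H3.3 regions, 5377 lay on these chromosomes, 3488 of those were at a gene end, 3119 of those were short and 1501 of those had no H3K27ac. The 1501 regions made up 27.9% of the H3.3 regions on chromosomes 1 to 19 (exact 95% interval 26.7 to 29.1) and 48.1% of the short regions at gene ends (46.4 to 49.9). The other short regions at gene ends, 1618 of them, touched H3K27ac, and 320 regions at gene ends without H3K27ac were 1500 bp or wider. These last 2 classes serve as comparisons below.

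The libraries came from E14, a male mouse embryonic stem cell line, by CUT&RUN, which uses an antibody to bring a nuclease to chromatin in nuclei and sequences the DNA that is cut free. The series concerns the H3.3 change K122A, and the genotype names give the alleles of the H3.3 genes H3f3a and H3f3b as A or WT. Mutant cells were H3f3a_AA_H3f3b_WTA (2 clones, with 1 library of each target per clone), H3f3a_AA_H3f3b_WTWT, H3f3a_WTA_H3f3b_AA and H3f3a_WTWT_H3f3b_AA (1 library of each target), and wildtype cells had 2 libraries of each target. The 4 targets were H3.3, H3K27ac, H3K122ac and no antibody, with 28 libraries in all, and each mutant genotype other than the first rests on 1 library of each target. All cells were grown with LIF, and the protocol in the labels also describes a medium with LIF and 2 kinase inhibitors without saying which libraries it applies to. Because the 2 lists hold no value per library, mutant cells were not compared with wildtype cells here, no replicate error can be given, and the depth is unknown. Intervals are exact 95% intervals that cover counting over regions or genes only, and regions are not replicates, so the classes are set side by side without a test. The cell label was checked on 29 genes of naive and core pluripotency, of which 24, or 82.8%, had an H3K27ac region at an end, against 8383 of 20665 protein-coding genes (40.6%). Growth and housekeeping genes had it at 89.8%, so this check shows acetylation at pluripotency genes and does not by itself identify the cells.

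H3.3 is the histone H3 variant that is put into chromatin outside DNA replication, at places where nucleosomes are exchanged, such as active promoters, enhancers and the promoters of developmental genes. H3K27ac is laid down by the acetyltransferases p300 and CBP at active promoters and enhancers. In embryonic stem cells many promoters of lineage regulators are rich in CpG, are bound by Polycomb complexes and lack acetylation, and Polycomb methylation occupies the same lysine 27 that is acetylated elsewhere.

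The regions covered promoters that were mostly, but not always, rich in CpG. Wholly inside one of the regions lay 202 RefSeq promoter sequences of 194 genes, each running 250 bases upstream to 50 bases downstream of a start site. The first 4 sequences are shown because they belong to some of the widest regions, at the Notch ligand gene Dll1, the neural factor gene Sox21, the motor neuron factor gene Mnx1 and the VEGF receptor gene Flt1. The last 2 are shown because they hold few CpG, and were chosen after their values were seen. They belong to Lin28a, which encodes an RNA-binding protein of pluripotent cells, and Ggn, a gene of the male germ line whose promoter had the lowest CpG ratio of the 202. Sequences are from RefSeq (GRCm38.p6), written 5′ to 3′ in the direction of the gene, with each CpG in capitals.
Dll1: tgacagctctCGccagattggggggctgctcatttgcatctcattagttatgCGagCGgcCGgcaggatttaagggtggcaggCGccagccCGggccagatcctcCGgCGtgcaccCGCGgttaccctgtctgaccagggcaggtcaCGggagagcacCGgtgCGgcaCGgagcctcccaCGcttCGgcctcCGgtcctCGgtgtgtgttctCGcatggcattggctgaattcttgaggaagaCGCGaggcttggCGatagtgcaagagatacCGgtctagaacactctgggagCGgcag
Sox21: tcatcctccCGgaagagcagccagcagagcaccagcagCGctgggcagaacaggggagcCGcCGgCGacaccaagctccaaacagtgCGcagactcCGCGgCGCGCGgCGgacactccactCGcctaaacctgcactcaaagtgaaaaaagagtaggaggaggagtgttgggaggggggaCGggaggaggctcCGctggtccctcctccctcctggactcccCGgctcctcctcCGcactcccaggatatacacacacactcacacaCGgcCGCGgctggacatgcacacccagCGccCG
Mnx1: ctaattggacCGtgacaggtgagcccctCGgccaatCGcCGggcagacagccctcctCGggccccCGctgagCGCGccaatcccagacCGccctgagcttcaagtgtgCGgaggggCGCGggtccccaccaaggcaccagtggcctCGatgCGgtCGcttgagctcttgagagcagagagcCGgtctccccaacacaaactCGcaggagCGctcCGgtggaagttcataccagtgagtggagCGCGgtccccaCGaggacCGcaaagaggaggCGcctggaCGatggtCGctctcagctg
Flt1: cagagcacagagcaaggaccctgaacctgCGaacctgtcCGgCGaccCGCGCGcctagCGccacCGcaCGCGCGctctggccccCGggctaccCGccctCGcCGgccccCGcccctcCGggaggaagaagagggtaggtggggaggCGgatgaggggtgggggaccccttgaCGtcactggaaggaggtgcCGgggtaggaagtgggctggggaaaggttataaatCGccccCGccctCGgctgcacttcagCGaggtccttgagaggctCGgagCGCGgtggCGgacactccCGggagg
Lin28a: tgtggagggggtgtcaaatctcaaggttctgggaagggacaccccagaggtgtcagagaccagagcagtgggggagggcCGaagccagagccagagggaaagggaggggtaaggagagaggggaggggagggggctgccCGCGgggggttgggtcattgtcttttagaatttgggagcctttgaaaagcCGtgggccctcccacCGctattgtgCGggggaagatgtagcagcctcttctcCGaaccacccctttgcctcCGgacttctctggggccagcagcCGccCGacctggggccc
Ggn: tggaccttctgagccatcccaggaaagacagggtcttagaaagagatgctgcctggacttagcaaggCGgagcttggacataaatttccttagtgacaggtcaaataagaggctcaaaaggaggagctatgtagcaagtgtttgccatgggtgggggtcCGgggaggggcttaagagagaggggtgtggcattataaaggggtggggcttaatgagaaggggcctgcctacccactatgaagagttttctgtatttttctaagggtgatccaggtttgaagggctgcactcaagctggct

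The Dll1 promoter (chr17:15375774-15376073, mm10, minus strand) held 24 CpG and had a CpG observed to expected ratio of 0.82, which sets the CpG seen against the number that the C and G content alone would give. The Sox21 promoter (chr14:118236981-118237280, minus strand) held 22 CpG at a ratio of 0.69. The Mnx1 promoter (chr5:29478421-29478720, minus strand) held 26 at a ratio of 0.79, and the Flt1 promoter (chr5:147725962-147726261, minus strand) held 29 at a ratio of 0.78. Against these, the Lin28a promoter (chr4:134018767-134019066, minus strand) held 10 CpG at a ratio of 0.35, and the Ggn promoter (chr7:29169960-29170259, plus strand) held 2 at a ratio of 0.12. The 4 regions over the first set lay between 19.4 kb (Dll1) and 98.1 kb (Sox21) from the nearest H3K27ac region. The region over the Lin28a promoter was 1395 bp wide and lay 0.435 kb from H3K27ac.

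Over all promoters of which the regions covered at least 150 bases, 414 in number, the median CpG ratio was 0.76 (interquartile range 0.65 to 0.86) and the median GC content was 64%. A ratio over 0.6 was found in 82.4% of the 414 (78.3 to 85.9). The same share was 86.5% of the 801 promoters under short H3.3 regions that touched H3K27ac (84 to 88.8), 74.5% of the 157 under wide regions without H3K27ac (67 to 81.1) and 48.9% of all 20085 promoters of protein-coding genes (48.2 to 49.6). Among promoters that neither list touched, the median ratio was 0.41. Among 3431 promoters with H3K27ac and no H3.3 the median ratio was 0.74, and 65.8% were over 0.6. Where the H3.3 region lay within 1 kb of H3K27ac the median ratio was 0.77 (112 promoters), and where it lay more than 10 kb away it was 0.74 (168 promoters). High CpG content was therefore shared by H3.3 promoters with and without H3K27ac, near it and far from it. A high median ratio was not particular to H3.3 promoters, since promoters with H3K27ac alone had it too.

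**Figure D1:**
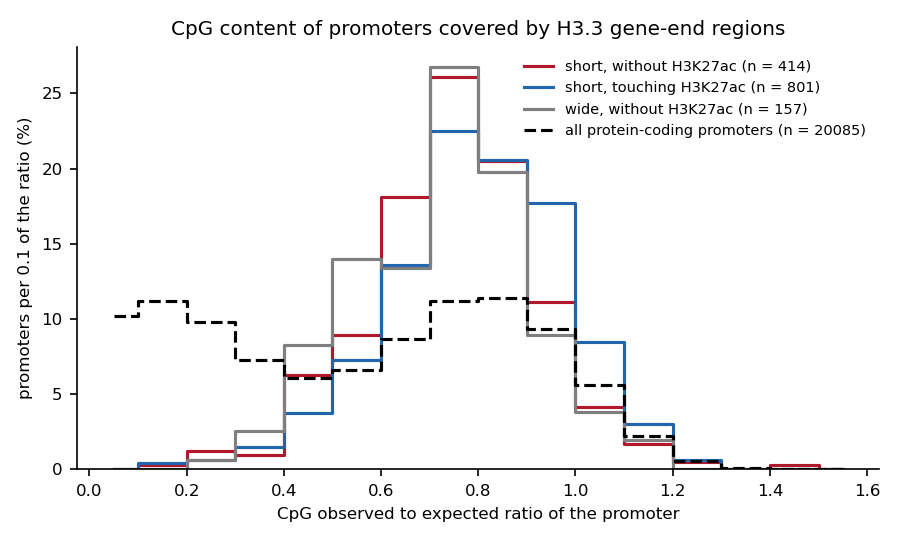
Share of promoters in each step of 0.1 of the CpG observed to expected ratio, for promoters covered over at least 150 bases by short H3.3 regions without H3K27ac (red), by short regions touching H3K27ac (blue) and by wide regions without H3K27ac (grey), and for all protein-coding promoters (dashed). All 3 H3.3 classes peak between 0.7 and 0.8, with medians of 0.76, 0.80 and 0.74, while the promoters of all genes have a second peak at low ratios.

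Some short sequence motifs stood at different shares in the classes. The motifs were searched on both strands of the same promoter sequences, and none is contained in another. The ETS core, CCGGAAG, which ETS factors such as GABPA bind at housekeeping promoters, was in 19.8% of the 414 promoters (16.1 to 24), in 32.1% of those under short regions that touched H3K27ac (28.9 to 35.4) and in 4.46% of those under wide regions without H3K27ac (1.81 to 8.97). All promoters held it at 11.9%, and promoters with a CpG ratio over 0.6 at 19.9%. Among the short regions without H3K27ac the share was 13.1% for those more than 10 kb from H3K27ac (8.39 to 19.2) and 25.9% for those within 1 kb of it (18.1 to 35). The YY1 core, AAGATGGCG, was in 2.42% of the 414, against 5.37% under short regions that touched H3K27ac, 0% of the 157 under wide regions (which allows up to 2.32%) and 1.83% of all promoters. The ZBTB33 (Kaiso) core, TCGCGAGA, was in 4 of 112 promoters near H3K27ac and in 0 of 168 more than 10 kb from it, which allows a share of up to 2.17%. It was in 1.69% of the 414, in 3.62% under short regions that touched H3K27ac and in 1.36% of all promoters. Promoters with a CpG ratio over 0.6 held the YY1 core at 3.43% and the ZBTB33 core at 2.68%.

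The SP/KLF box, GGGCGG, was in 72.5% of the 414 promoters, against 68.9% under short regions that touched H3K27ac, 65% under wide regions, 47% of all promoters and 74.3% of those with a CpG ratio over 0.6. The CCAAT box, bound by NFY, was in 46.4%, 45.6% and 45.2% of the same 3 H3.3 classes and in 38.1% of all promoters. The TATA box, TATAAA, was in 6.28% of the 414, or 26 promoters, and in 12.7% of all promoters. It was in 13 of 168 promoters (7.74%, 4.18 to 12.9) more than 10 kb from H3K27ac and in 2 of 112 (1.79%, 0.217 to 6.3) within 1 kb. The E-box, CACGTG, was in 8.94% of the 414 and in 7.89% of all promoters. It was in 17 of the 168 promoters far from H3K27ac (10.1%, 6.01 to 15.7) and, like the TATA box, in 2 of the 112 near it. Under short regions that touched H3K27ac the TATA box was in 4.74% and the E-box in 7.74% of 801 promoters. These shares were 8.92% and 9.55% under wide regions, and 6.38% and 11.4% of promoters with H3K27ac and no H3.3. Neither motif thus fell steadily from promoters far from H3K27ac to those touching it. The CRE, TGACGTCA, was in 1.69% of the 414 (0.682 to 3.45), against 4.49% under short regions that touched H3K27ac (3.17 to 6.17), 4.46% under wide regions (1.81 to 8.97) and 2.3% of all promoters. The NRF1 core, GCGCATGC, was in 3.38% of the 414 and in 3.55% of all promoters. The octamer, ATGCAAAT, was in 2.9% of the 414 and in 1.67% of all promoters, the GA repeat, GAGAGAGA, in 3.62% and 3.36%, and the E2F core, TTTCGCGC, in 0.242% and 0.468%. Promoters with a CpG ratio over 0.6 held the CCAAT box at 36.4%, the TATA box at 5.57% and the E-box at 11.4%. The same promoters held the CRE at 3.77%, the NRF1 core at 6.37% and the octamer at 1.23%. Their shares were 2.52% for the GA repeat and 0.835% for the E2F core. All these motif counts are matches of letters in a window and not measured binding.

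**Figure D2:**
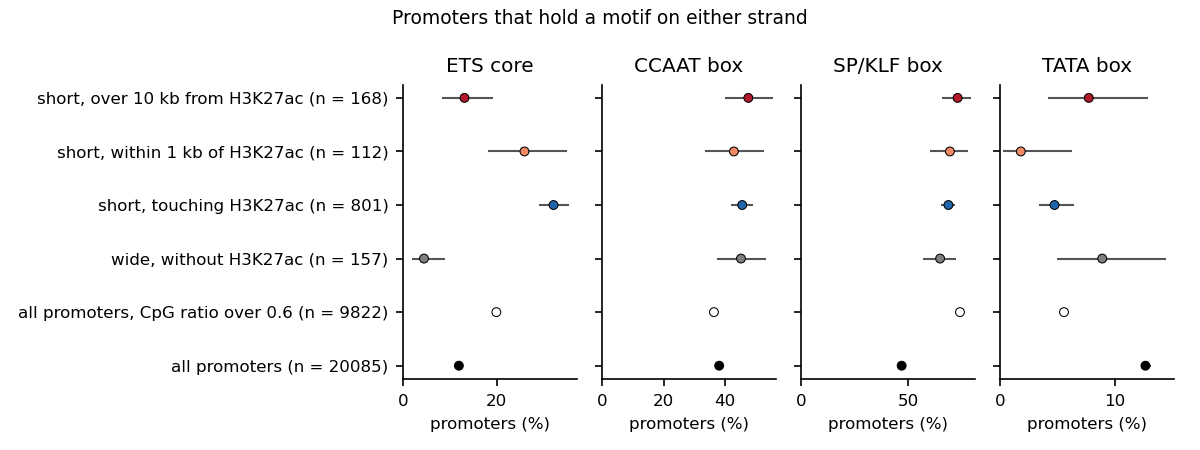
Share of promoters holding each of 4 motifs on either strand, with exact 95% intervals, for short H3.3 regions without H3K27ac by their distance to H3K27ac, for the comparison classes and for all promoters. The ETS core runs from 13.1% in regions far from H3K27ac to 25.9% in those near it and 32.1% in those touching it, while the CCAAT box stays between 42.9% and 47.6% in the H3.3 classes.

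The regions were narrow, which the width limit set in part. Their median width was 392 bp (interquartile range 249 to 686, from 195 to 1498 bp), and together they covered 758.7 kb. The short regions that touched H3K27ac had a median of 448 bp (252 to 708). Below 250 bp lay 25.2% of the regions, from 250 to under 500 bp 35.2%, from 500 to under 1000 bp 29.8% and from 1000 to under 1500 bp 9.73%. The widest were 1498 bp regions at Gfra1, the GDNF co-receptor gene, and at the noncoding Gm17762. They were followed by 1486 bp at Dll1 and at Tmem132e, 1478 bp at Cplx2, which encodes a regulator of synaptic vesicle fusion, and 1477 bp at Sox21. Next came 1475 bp at the noncoding Gm32957, 1473 bp at Lrp2, the gene of the endocytic receptor megalin, 1463 bp at Mnx1 and 1452 bp at Fzd2, which encodes a Wnt receptor. The narrowest, at 195 bp, lay at Sox9 and Prdm13, and Mcidas, Scube1 and Kcnh8 had regions of 196 bp. Just over the limit were regions of 1507 bp at Foxa1 and at Dbx1 and of 1512 bp at Hoxa13, so genes of the same kind stood on both sides of it.

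Most of the regions lay at the start of a gene. In 1173 pairs of a region and a protein-coding gene whose strand is known, the region was at the start in 87.7% (85.7 to 89.5), at the far end in 10.6% and at both in 1.71%. Short regions that touched H3K27ac were at the start in 90.3% (88.7 to 91.7) and at both in 1.76%, and wide regions without H3K27ac were at the start in 66.8% (60.1 to 73) and at both in 14.7% (10.3 to 20.2). The annotated end itself lay inside 485 of the 1501 regions, or 32.3%. The window of 1 kb sets an edge here too, with Foxa1 at 1000 bp, Mpp2 at 999 bp and the noncoding Gm19744 at 999 bp just inside it, and Loxl1 at 1005 bp, St3gal6 at 1007 bp and Tll1 at 1008 bp just outside.

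Around the start site the regions were spread as follows. Among the 1155 regions at an end of a gene with a known start site, 35.5% covered a start site (32.7 to 38.3), against 48.7% of short regions that touched H3K27ac (46 to 51.4) and 70.7% of wide regions (64.6 to 76.3). The centre lay within 250 bp of a start site in 44.8%, against 62% and 18.9% in the same comparison classes. It lay up to 500 bp upstream in 33% and up to 500 bp downstream in 35.9% of the 1155. A centre 500 bp to 2 kb upstream was found in 10.6%, against 6.27% of short regions that touched H3K27ac, and one 500 bp to 2 kb downstream in 11.5%, against 5.25%.

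**Figure D3:**
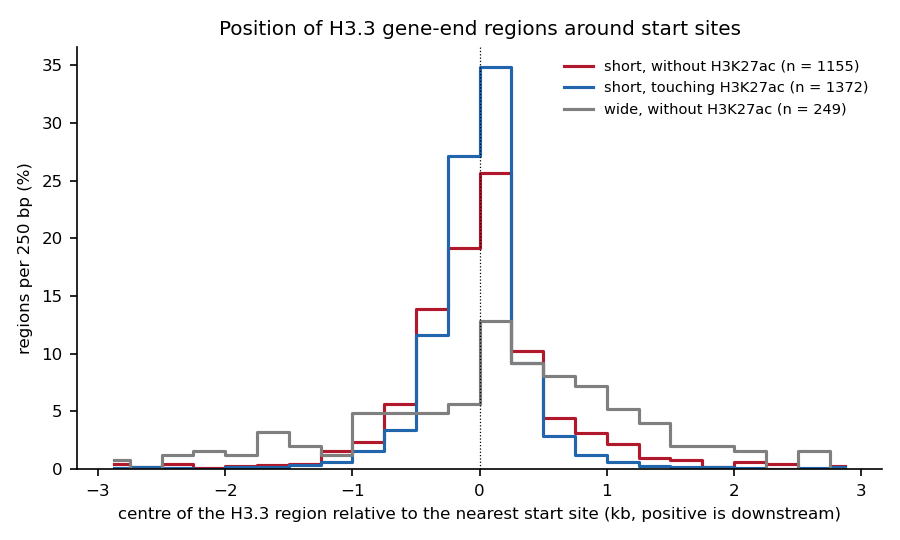
Position of the centre of H3.3 regions relative to the nearest start site, in steps of 250 bp, for short regions without H3K27ac (red), short regions touching H3K27ac (blue) and wide regions without H3K27ac (grey). Of the red class, 44.8% have their centre within 250 bp of the start, against 62% of the blue class and 18.9% of the grey class.

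A single region often served several genes. Of the 1501 regions, 1094 touched the end of 1 gene, 379 of 2 genes, 25 of 3 and 3 of 4. At 94 regions the starts of genes on opposite strands were touched by the same region. Whether the genes ran away from each other or overlapped was not checked. Among the widest of these were 1259 bp between Fzd4, a Wnt and norrin receptor gene, and Tmem135 (chr7:89403970-89405228), 1190 bp between Col4a2 and Col4a1, the collagen IV chains that share a promoter region (chr8:11312312-11313501), and 1142 bp between the ubiquitin ligase adaptor genes Fbxo44 and Fbxo2 (chr4:148159706-148160847). The region at Fzd4 lay 61.5 kb and the region at Col4a2 183 kb from H3K27ac, while that at Fbxo44 lay 1.55 kb from it.

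The rule required only that no base be shared with H3K27ac, and the regions spanned a wide range of distances from it. The median distance to the nearest H3K27ac region was 13.9 kb (interquartile range 2.41 to 52.5 kb), against 64.5 kb (25.5 to 150) for wide regions without H3K27ac. It was 22.4 kb when regions within 1 kb of H3K27ac were left out and 7.94 kb when contact counted only from 50% coverage. Within 1 kb lay 284 regions (18.9%), from 1 to 10 kb 384 (25.6%), from 10 to 50 kb 440 (29.3%) and beyond 50 kb 393 (26.2%). At the near edge, 59 regions lay within 100 bp of H3K27ac. Distances run from the last base of a region to the first base of the next, so 1 bp means adjoining regions with no base between. The regions shared by Dcaf6 and Mpc2, by Slc39a6 and Elp2, and at Rev3l and Ufl1 adjoined H3K27ac in this way. The region at the RNA polymerase III subunit gene Polr3b lay at a distance of 2 bp. On the other side of the edge, excluded regions at Notch4, Gpat4 and between Wdr12 and Carf touched H3K27ac by 1 bp.

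At the far edge, 222 regions, or 14.8%, lay more than 100 kb from H3K27ac. Among the farthest was a region of 1313 bp at the cadherin gene Cdh11 at 1561 kb (chr8:102784064-102785376). Regions of 217 and 685 bp at Irx1, a homeobox gene, lay at 1142 and 1136 kb, and a region of 316 bp at Ypel5 lay at 998 kb.

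Width, position and neighbours varied with this distance. The median width was 311 bp within 1 kb of H3K27ac, 349.5 bp from 1 to 10 kb, 460 bp from 10 to 50 kb and 482 bp beyond 50 kb. A start site of known position was covered by 41.5%, 38.5%, 31.8% and 31.4% of the regions in the same 4 steps. Another H3.3 region lay within 5 kb of 11.6%, 20.3%, 33.4% and 44.3%. From the nearest to the farthest step, the median width and the share with a neighbour went up, and the share that covered a start site went down. Across all 1501 regions, 28.8% had another H3.3 region within 5 kb (26.5 to 31.1), against 10.3% of short regions that touched H3K27ac and 74.1% of wide regions without H3K27ac. A wide H3.3 region lay within 5 kb of 7.79% of them, against 0.556% of the acetylated short regions.

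Of the 284 regions within 1 kb of H3K27ac, 225 (79.2%) had it on 1 side and 59 (20.8%) lay between H3K27ac regions on both sides. At starts of known strand, 217 of the regions in all, H3K27ac was within 1 kb on the downstream side alone in 106 (48.8%), on the upstream side alone in 68 (31.3%) and on both sides in 43 (19.8%). Where a region touched starts on opposite strands, as at Rps18 and Vps52, the side was taken from 1 of the genes. Upstream and downstream are arbitrary for such regions. These distances depend on where the authors' lists end each region, and the lists give no signal between regions.

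Genes with such a region at their start were not all without H3K27ac. Of 993 protein-coding genes of known strand with a short H3.3 region without H3K27ac at the start, 238 (24.0%, 21.3 to 26.7) had H3K27ac elsewhere within 1 kb of that start, and 598 (60.2%, 57.1 to 63.3) had it somewhere in the gene or within 1 kb. Over all 16457 protein-coding genes of known strand these shares were 35.6% and 53.4%. For 142 genes with a wide H3.3 region without H3K27ac at the start they were 0%, which allows up to 2.56%, and 16.9%. The low share at the start follows in part from the choice of regions. At 13 genes a short H3.3 region that touched H3K27ac lay at the same start. The 993 genes had a median length of 22.6 kb, against 17.3 kb over all genes.

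A short H3.3 region without H3K27ac lay at an end of 1413 of 20665 protein-coding genes, or 6.84%. Counting only regions of at least 300 bp, 942 in number, this share was 4.35%. Gene lists are read against this share by description only, since the regions and lists were chosen with earlier results of these data known. The plot of list shares gives all 26 lists. Genes for regulators of development stood highest, and genes for sensory receptors, keratins and cytokines lowest.

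**Figure D4:**
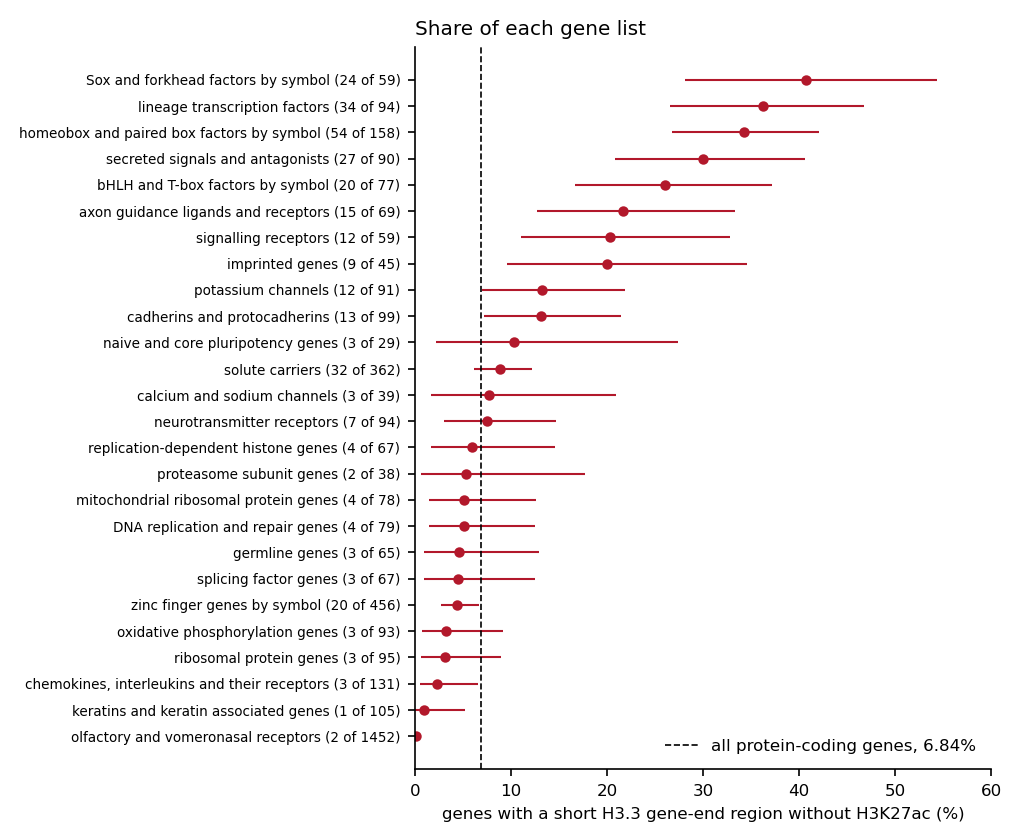
Share of the genes of each of 26 lists that had a short H3.3 region without H3K27ac at an end, with exact 95% intervals over genes, and the share of all protein-coding genes (dashed line, 6.84%). Sox and forkhead genes are highest at 40.7%, and olfactory and vomeronasal receptor genes lowest at 0.138%.

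Among transcription factor genes the share was 102 of 311, or 32.8% (27.6 to 38.3), over 4 lists together. The 125 regions at these genes had a median width of 633 bp and a median distance of 84.3 kb from H3K27ac, against 387 bp and 11.6 kb for regions at all protein-coding genes. Of the 125, 113 lay more than 10 kb from H3K27ac and 4 within 1 kb, and 46 lay within 5 kb of a wide H3.3 region. Of the 1316 regions at all protein-coding genes, 698 lay more than 10 kb from H3K27ac, 270 within 1 kb and 88 within 5 kb of a wide H3.3 region. The same counts are the background for the lists below. A wide H3.3 region without H3K27ac at an end was found at 131 of the 311 genes, against 276 of all 20665 protein-coding genes (1.34%).

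Sox and forkhead genes had such a region in 24 of 59 cases (40.7%, 28.1 to 54.3). The widest were 1477 bp at Sox21, 1366 bp at Sox17, a regulator of endoderm and vessels, 1335 bp at the endoderm pioneer factor gene Foxa1 and 1250 bp at Foxp2, which is active in brain circuits for vocal behaviour. These lay at 98.1, 273, 22.1 and 353 kb from H3K27ac. The region at Foxa1 was at the far end of the gene, and a second one of 827 bp lay at the same gene. Sox9, the cartilage and testis regulator, had regions of 1040 and 195 bp, about 696 and 695 kb from H3K27ac.

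Homeobox and paired box genes, which set position and cell identity in the embryo, had such a region in 54 of 158 cases (34.2%, 26.8 to 42.1). The widest were 1384 bp at Hoxc10 (190 kb from H3K27ac), 1351 bp at Hoxd10 (104 kb), 1274 bp at Hoxd12 (95.8 kb) and 1207 bp at Hoxa13 (152 kb, touching both ends of the gene). Of the 64 regions at these genes, 31 lay within 5 kb of a wide H3.3 region and 1 lay within 1 kb of H3K27ac. That region was at Six4, 1082 bp wide and 0.593 kb from H3K27ac, and it also touched the start of Mnat1, a gene of the CDK-activating kinase.

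Lineage regulators named in their own list had such a region in 34 of 94 cases (36.2%, 26.5 to 46.7). Beside Sox17 and Foxa1 the widest were 1177 bp at Pax8, a thyroid and kidney factor, and 1120 bp at Foxc1, a factor of eye and vessel development. Of the 94 genes, 56 had a wide H3.3 region without H3K27ac at an end and 3 had H3K27ac at an end, against 1.34% and 40.6% of all protein-coding genes. Basic helix-loop-helix and T-box genes had one in 20 of 77 cases (26%, 16.6 to 37.2), led by 1019 bp at Tbx20, a heart factor, 1001 bp at Hes6, 973 bp at the clock repressor gene Bhlhe41 and 853 bp at Tbx18. At 4 genes of the T-box and bHLH list the distance to H3K27ac was under 10 kb in a range from 0.208 kb (Tcf7, named by the start of its symbol and in fact an HMG-box factor of Wnt signalling) to 9.41 kb (Id4).

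**Figure D5:**
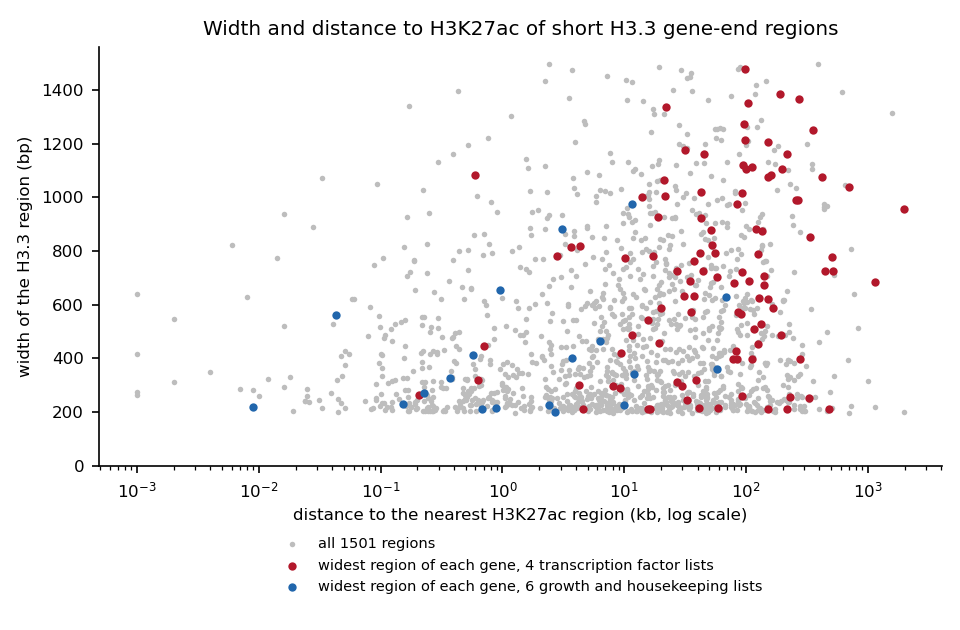
Width of each of the 1501 regions against its distance to the nearest H3K27ac region on a log scale. The widest region of each gene of the 4 transcription factor lists is red and that of each gene of the 6 growth and housekeeping lists is blue, and the remaining regions are grey. Counting every region at these genes, 113 of 125 lie beyond 10 kb for the first group, against 4 of 19 for the second. At all protein-coding genes 698 of 1316 regions do.

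Signals and their antagonists, mostly secreted, had such a region in 27 of 90 cases (30%, 20.8 to 40.6). The widest were 1486 bp at Dll1, which like Dll3 and Jag1 of this list encodes a membrane-bound Notch ligand, 1364 bp at the activin antagonist gene Fst, 1014 bp at Wnt6 and 999 bp at the Wnt antagonist gene Frzb. Their distances to H3K27ac ran from 10.6 kb (Fst) to 63.7 kb (Frzb). At these genes 4 of 27 regions lay within 5 kb of a wide H3.3 region, against 88 of 1316 regions at all protein-coding genes. Of the 90 genes, 9 had a wide region without H3K27ac at an end, against 1.34% of all protein-coding genes. H3K27ac at an end was found at 14 of them, against 40.6%. With a gene-end window of 500 bp the share of these signal genes with a short region was 18.9%. Signalling receptors had one in 12 of 59 cases (20.3%, 11 to 32.8), with 1452 bp at Fzd2, 1450 bp at Flt1, 1288 bp at the chemokine receptor gene Cxcr4 and 1259 bp at Fzd4. Fzd2 was 7.16 kb and Cxcr4 131 kb from H3K27ac. A wide H3.3 region lay within 5 kb of 0 of the 14 receptor regions, too few regions to set apart from the 88 of 1316.

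Axon guidance genes had such a region in 15 of 69 cases (21.7%, 12.7 to 33.3). The widest lay at 3 genes of ephrins, the membrane-bound ligands of Eph receptors, with 1012 bp at Efna3, 991 bp at Efna5 and 858 bp at Efnb2, followed by 760 bp at the semaphorin and VEGF co-receptor gene Nrp1. Efna3 and Efnb2 lay 4.1 and 1.71 kb from H3K27ac and Efna5 and Nrp1 57.5 and 137 kb from it.

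Ion channels and surface proteins of neurons were nearer to the share of all genes. Potassium channel genes had such a region in 12 of 91 cases (13.2%, 7 to 21.9), with 1395 bp at Kcnk12, 1128 bp at Kcnc2, 905 bp at Kcnk9 and 871 bp at Kcng3. Cadherin and protocadherin genes had one in 13 of 99 cases (13.1%, 7.18 to 21.4), of which 9 lay on chromosome 18, and the widest were 1313 bp at Cdh11, 1255 bp at Pcdh8, 1090 bp at Pcdh1 and 1005 bp at Celsr3. Calcium and sodium channel genes (3 of 39, 7.69%) and neurotransmitter receptor genes (7 of 94, 7.45%) were at about the share of all genes. The widest of the receptors was 1107 bp at the metabotropic glutamate receptor gene Grm8, 344 kb from H3K27ac. Solute carrier genes had one in 32 of 362 cases (8.84%, 6.13 to 12.2), and 10 of their 33 regions lay within 1 kb of H3K27ac, among them the widest, 1339 bp at the zinc and iron transporter gene Slc39a14 at 0.17 kb. Next were 1222 bp at the vesicular acetylcholine transporter gene Slc18a3, 940 bp at Slc16a9 and 849 bp at Slc9a3r1, a scaffold protein gene taken in by its symbol.

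Imprinted genes, which are expressed from 1 parental copy, had such a region in 9 of 45 cases (20%, 9.58 to 34.6), and in 4 of 45 (8.89%) when only regions of at least 300 bp were counted. The widest were 1215 bp at the thyroid hormone deiodinase gene Dio3, 905 bp at Kcnk9, 782 bp at the placental factor gene Ascl2 and 622 bp at Trappc9. Peg10 and Sgce, neighbours transcribed away from each other, shared a region of 224 bp at 87.7 kb from H3K27ac. Of the 11 regions at imprinted genes 9 lay more than 10 kb from H3K27ac. Germline genes had one in 3 of 65 cases (4.62%), which were Prdm1 (1106 bp), Prdm14 (554 bp) and the meiotic recombinase gene Dmc1 (425 bp).

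Pluripotency genes had such a region in 3 of 29 cases (10.3%, 2.19 to 27.4). They were Lin28a with 1395 and 347 bp, Gbx2 with 814 bp and Prdm14 with 554 bp. The nearer Lin28a region lay 4 bp from H3K27ac, Gbx2 lay 3.63 kb and Prdm14 13.6 kb from it. Gbx2 and Prdm14 act in naive embryonic stem cells and also in later development, as a hindbrain factor and as a factor of primordial germ cells.

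Growth and housekeeping genes had such a region in 19 of 450 cases over 6 lists together (4.22%, 2.56 to 6.52). Their 19 regions had a median width of 340 bp and lay a median of 2.4 kb from H3K27ac, 9 of them within 1 kb and 4 beyond 10 kb. Of the 450 genes, 404 (89.8%) had H3K27ac at an end and 111 had a short H3.3 region that touched it, against 40.6% and 8.87% of all protein-coding genes. Ribosomal protein genes had 3 of 95, namely Rps18 (562 bp, 0.043 kb from H3K27ac), Rpl26 (219 bp, 0.009 kb) and Rps6ka5 (881 bp), a kinase gene taken in by its symbol. Mitochondrial ribosomal genes had 4 of 78, led by 653 bp at Mrpl20, and oxidative phosphorylation genes 3 of 93, led by 974 bp at Ndufa4l2, a hypoxia-induced paralogue, at 11.5 kb. Proteasome genes had 2 of 38, and these were the interferon-induced immunoproteasome subunits Psmb8 (627 bp) and Psmb9 (361 bp), 68.2 and 57.9 kb from H3K27ac. Splicing factor genes had 3 of 67 (399 bp at Snrpd2, 327 bp at Srsf1 and 201 bp at Hnrnpd) and replication and repair genes 4 of 79, led by 463 bp at Ercc6. Replication-dependent histone genes had 4 of 67, of which H1f4 and H2bc6 shared a region of 646 bp. When H3K27ac within 1 kb was not allowed, 1 gene each was left of the ribosomal, mitochondrial ribosomal, oxidative phosphorylation and histone lists.

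Some large gene families had few such regions. Olfactory and vomeronasal receptor genes had 2 of 1452 (0.138%, 0.0167 to 0.497), a region of 229 bp at Vmn2r29 and 1 of 228 bp at Olfr94. Keratin genes had 1 of 105 (462 bp at Krt77). Chemokine and interleukin genes had 3 of 131 (2.29%), at the receptor genes Cxcr4, Ccr10 and Il3ra. Zinc finger genes named by symbol had 20 of 456 (4.39%, 2.7 to 6.69), with 1132 bp at Zfp536, 1016 bp at Zfp78, 984 bp at Zfp526 and 616 bp at Zfp703, and 9 of their 23 regions lay within 1 kb of H3K27ac. The zinc finger share was 6.8% when H3K27ac contact counted only from 50% coverage of a region and 2.85% with regions of at least 300 bp. Of the zinc finger genes, 61.4% had H3K27ac at an end, against 40.6% of all protein-coding genes.

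Some genes had several of the regions. Among protein-coding genes, 84 had 2 and 3 had 3. The gene of the endocrine pancreas regulator Neurog3 had regions of 574, 510 and 560 bp within chr10:62132239-62136239, the scavenger receptor gene Scarf2 had 226, 525 and 545 bp, and Fbxl8 had 1004, 1124 and 640 bp. Sox21 had a second region of 851 bp and Mnx1 a second of 649 bp. Among long noncoding RNA genes, 25 had 2 and 3 had 3, the 3 being Gm9748, 5730488B01Rik and Gm33152.

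The regions were found on each of chromosomes 1 to 19, and some stretches of 1 Mb held more than others. By the rule they lie at gene ends, and the counts per stretch are not corrected for gene density. The stretch of 1 Mb with the most, 11 regions, was on chromosome 8 from 70 to 71 Mb, with genes such as Ell, Gdf15, Kcnn1 and Pik3r2. Next was chromosome 17 from 56 to 57 Mb with 10, at genes that include the chromatin regulator Kdm4b and the neurotrophic factor gene Nrtn. The stretches of chromosome 1 from 74 to 75 Mb, chromosome 10 from 80 to 81 Mb, chromosome 19 from 5 to 6 Mb and chromosome 7 from 19 to 20 Mb had 9 each. In the first of these, protein-coding genes with a region were the signal genes Wnt6 and Ihh, the serotonin neuron factor gene Fev, and Cdk5r2, Cryba2 and Cfap65. Of noncoding genes there, Gm29539 and Gm32099 had a region each and Gm16582 had 2.

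Noncoding genes were touched as well. Of the 1501 regions, 1316 (87.7%) touched a protein-coding gene, 359 a long noncoding RNA gene and 149 (9.93%) long noncoding RNA genes alone. Of 12408 long noncoding RNA genes 2.68% had such a region, and of 391 tRNA genes 2.05%. Of 1136 microRNA genes 23 had one, or 2.02% (1.29 to 3.02).

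Several of these microRNAs belong to neural, pancreatic and Hox programmes, and 4 mature sequences are shown to make their seeds visible. The microRNAs described were picked after their values were seen. Others of the 23, such as Mir101c, Mir6240, Mir5620 and Mir8104, are not described, so no theme is drawn for the whole set. The 4 sequences are from RefSeq (GRCm38.p6), with the seed, bases 2 to 8, in capitals, and no seed was shared among the 4. For Mir375 the 5p sequence alone was available, so the seed from the other strand of its hairpin is not shown.
mmu-miR-375-5p: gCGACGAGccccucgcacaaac
mmu-miR-196a-5p: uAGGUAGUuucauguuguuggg
mmu-miR-219a-5p: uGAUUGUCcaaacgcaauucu
mmu-miR-1247-5p: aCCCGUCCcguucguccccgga

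Mir375, the gene of a microRNA of pancreatic islets, lay wholly inside a region of 802 bp (chr1:74900422-74901223), 75.5 kb from H3K27ac. It was in the chromosome 1 stretch that holds Wnt6 and Ihh, and the same region touched an end of Cfap65. Mir196a-2, a Hox cluster microRNA that targets Hoxb8, had regions of 1384 and 573 bp (chr15:102971374-102972757 and chr15:102973015-102973587), of which the narrower held the whole hairpin, and a wide H3.3 region of 5429 bp. The region of 1384 bp also touched Hoxc10. Mir196a-1 had no H3.3 region within 1 kb, and Mir196b had a wide one of 6922 bp. Mir219a-1, whose microRNA promotes oligodendrocyte differentiation, had regions of 262 and 226 bp (chr17:34024415-34024676 and chr17:34024700-34024925), 42.8 and 43.1 kb from H3K27ac, while Mir219a-2 had none. Both regions also touched Ring1 and Mir219c, and they ended 307 and 58 bp short of the Mir219a-1 hairpin. Mir1247 had a region of 579 bp (chr12:110278893-110279471) at 64.4 kb. It lay 764 bp from the hairpin and also touched Dio3 and the noncoding Dio3os.

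All 3 gene copies of the neuronal microRNA miR-124 had such a region. It was 1301 bp wide at Mir124a-1 (chr14:64589078-64590378, 1.16 kb from H3K27ac), 203 bp at Mir124a-2 (chr3:17794758-17794960, 305 kb) and 555 bp at Mir124a-3 (chr2:180894436-180894990, 10.8 kb). Mir124a-1 was the copy with H3K27ac within 1 kb of the gene. Of the miR-9 genes, also neuronal, Mir9-3 had a wide H3.3 region of 3489 bp without H3K27ac and Mir9-1 and Mir9-2 had none. The genes Mir302a, Mir302b, Mir302c and Mir302d, of a cluster typical of embryonic stem cells, had H3K27ac within 1 kb and no H3.3 region.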

How the data were processed

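Per the labels, CUT&RUN was run on nuclei of E14 cells, with a protein A nuclease fusion for H3K27ac and a protein A/G fusion for H3.3, and digestion was stopped in buffers of different salt. Per the submitters' processing notes, the tools were Bowtie2, SAMtools, deepTools and MACS2 and the build was mm10, with no version or role stated. How consensus regions were made and which genotypes entered is not given in the sources used here. Each deposited row is a position (chromosome, start, end), with no score and no value per library, so narrow regions and the ends of regions cannot be weighed by signal. Columns of other samples numbered 0. The H3K122ac and no-antibody libraries were not analysed here.

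Starts were raised by 1. Genes came from RefSeq (GRCm38.p6, 49943 genes on 21 chromosomes), and strands, start sites and promoter sequences from RefSeq promoter and microRNA tables. A gene whose strand these tables do not give entered no count by strand. Exact (Clopper-Pearson) 95% intervals were computed in Python 3.11.15 with scipy 1.17.1 and pandas 2.3.3. The interval search was tested on simulated data.

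The members and lists were chosen with earlier results of these data known. Of 26 lists, 19 were defined by the pattern of the gene symbol and 7 by name. Named genes are the 10 widest regions, up to 4 genes a list by width, genes with several regions, regions just inside and outside each limit, those nearest to and farthest from H3K27ac, wide regions holding a whole promoter and the densest stretches of 1 Mb. Further genes, such as Six4, Tcf7, Id4, Sox9, Peg10, Sgce and the microRNA families, were picked after their values were seen. A few items that this choice would take are left out of the text.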

Additional observations from a re-analysis of the deposited data

How the results depend on the processing

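No paired analysis was possible because the lists hold no value per library, and for the same reason no library could be left out. Of 256 values recomputed under 8 alternatives, 29 moved. Shares and medians moved when they left the interval of the reported value. The number of regions has no interval and was judged by a limit on its fold change. The causes were not tested except where an alternative changes the set by construction. With a gene-end window of 500 bp the share of protein-coding genes was 5.74%, regions at the start 92.4%, the median distance to H3K27ac 11.4 kb, lineage factors 25.5%, secreted signals 18.9% and keratins 0%. With 2.5 kb these were 8.41% of genes, 76.3% at the start and 16.3 kb, with 89.3% touching protein-coding genes, lineage factors at 48.9% and homeobox genes at 48.1%. A width limit of 1000 bp gave 6.27% of genes and 26.6% of homeobox genes, and one of 2000 bp moved none of its 32 values. Without H3K27ac within 1 kb, 5.27% of genes had a region, the median distance was 22.4 kb, and solute carriers stood at 6.08%, mitochondrial ribosomal genes at 1.28% and histone genes at 1.49%. Counting H3K27ac contact only from 50% coverage gave 8.46% of genes, 7.94 kb and 6.8% of zinc finger genes. With protein-coding genes alone, 100% of regions touched one by construction. Regions of at least 300 bp numbered 942, with 4.35% of genes, 16.8 kb, imprinted genes at 8.89%, mitochondrial ribosomal genes at 1.28% and olfactory receptors at 0%. Each list stayed on its side of the share of all genes under all 8 alternatives, except calcium and sodium channel, germline, proteasome and splicing genes (7 of 8 each), neurotransmitter receptors (6) and histone genes (4). Of 301 regions of named genes, 225 (at least 300 bp) to 301 remained.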
